A study of Mus musculus with 38 samples.

Results

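In the genome of IκBα-KO mouse embryonic stem cells, 798 regions carried a call of H3K4me1, the monomethylation of lysine 4 of histone H3, in all 3 KO libraries and in 0 of 3 WT libraries. They were found by merging the regions that the caller epic2 had listed in the 6 H3K4me1 libraries wherever these overlapped by at least 1 bp. The gained regions, as they are called from here on, were 1.24% of the 64489 merged regions on chromosomes 1 to 19 outside 3 segments in which input reads differed between the genotypes (chromosome 2 from 165 to 171 Mb, chromosome 8 from 40 to 129 Mb and chromosome 12 from 103 to 119 Mb). The whole series held 69191 merged H3K4me1 regions. By the same rule in the other direction 1181 regions were lost, and 42214 were called in all 6 libraries. The regions were chosen by their H3K4me1 calls, so their H3K4me1 values are a description without a test. A list holds no value where nothing was called, so WT levels of H3K4me1 at the gained regions, and fold changes from them, are not given.

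H3K4me1 is laid down mainly by the methyltransferases KMT2C and KMT2D and is found at enhancers, the distal elements that raise transcription of a gene, and on the flanks of active promoters. An enhancer with H3K4me1 alone is usually called primed or poised, and one that also has H3K27ac, the acetylation of lysine 27, is called active. H3K27me3 marks sequence silenced by Polycomb, H3K9me3 marks heterochromatin and the silent allele of imprinted control regions, and H3K4me3 marks promoters. In embryonic stem cells, enhancers of naive pluripotency genes are bound by factors such as ESRRB, TFCP2L1 and KLF4.

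ChIP-seq of these 5 modifications had been carried out in the line ES-E14TG2a at 0 h, grown with serum and leukaemia inhibitory factor, with 3 WT and 3 KO libraries for each. The KO cells carry the genotype IkappaBalpha-/- in the labels of H3K4me1 and H3K27ac (IkappBalpha-/- in the others). They had been made with Cas9 and guides to exon 1 of Nfkbia, the gene of IκBα, while the WT cells (IkappaBalpha+/+ or IkappBalpha+/+) had received guides without a target. The study describes 3 independent clones per genotype, so that differences among clones and passages enter the spread between libraries. The H3K4me1 lists held 70180 to 76172 calls with 34736939 to 35951506 ChIP reads, and 1 input per genotype served H3K4me1 and H3K27ac alike. The labelled cell type was checked at 8 marker promoters: H3K27ac was called in all 6 libraries over 7 of them (Pou5f1, Sox2, Nanog, Zfp42, Klf4, Tdgf1 and Dppa4), and the window of Esrrb instead carried H3K27me3 in all 6. Promoters of 12 markers of primitive endoderm, mesendoderm, neural cells and fibroblasts all carried H3K27me3 in all 6 libraries, and 8 of these 12 also carried H3K27ac.

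Sequences of 6 gained regions are shown because they stand for the groups described below, 4 near genes of pluripotency or signalling, the region with one of the highest enrichments, at Hrh2, and the widest region, at Mest. Each is the middle 300 bases of the part called in all 3 KO libraries, on the plus strand of GRCm38.p6, with motif matches in capitals. The motifs were searched on both strands, and their frequencies are given further below. In order, the windows are chr5:119281751-119282050, chr4:55618551-55618850, chr1:118748351-118748650, chr9:116346751-116347050, chr13:54186151-54186450 and chr6:30744251-30744550. Capitals mark an ESRRB motif at Tfcp2l1, AP-1, ESRRB and ZFP57 motifs at Tgfbr2, a KLF motif at Hrh2 and a TFCP2L1 motif at Mest, and the windows at Tbx3 and Klf4 held no match.
Tbx3: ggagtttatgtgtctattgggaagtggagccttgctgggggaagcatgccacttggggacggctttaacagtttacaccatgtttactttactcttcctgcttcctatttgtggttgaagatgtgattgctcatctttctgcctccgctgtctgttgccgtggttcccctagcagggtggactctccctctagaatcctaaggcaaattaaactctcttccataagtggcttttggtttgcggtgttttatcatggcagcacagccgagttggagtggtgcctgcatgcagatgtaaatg
Klf4: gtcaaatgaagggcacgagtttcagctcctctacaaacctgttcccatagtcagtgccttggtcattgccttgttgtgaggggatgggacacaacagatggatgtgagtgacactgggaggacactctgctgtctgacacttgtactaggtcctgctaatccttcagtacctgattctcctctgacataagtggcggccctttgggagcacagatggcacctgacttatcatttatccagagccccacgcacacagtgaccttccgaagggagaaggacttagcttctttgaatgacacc
Tfcp2l1: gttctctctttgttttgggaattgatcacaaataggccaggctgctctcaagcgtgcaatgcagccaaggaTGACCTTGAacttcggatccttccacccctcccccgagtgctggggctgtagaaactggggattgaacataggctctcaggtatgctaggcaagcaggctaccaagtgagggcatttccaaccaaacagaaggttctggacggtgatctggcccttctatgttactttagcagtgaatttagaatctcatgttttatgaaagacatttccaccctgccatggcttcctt
Tgfbr2: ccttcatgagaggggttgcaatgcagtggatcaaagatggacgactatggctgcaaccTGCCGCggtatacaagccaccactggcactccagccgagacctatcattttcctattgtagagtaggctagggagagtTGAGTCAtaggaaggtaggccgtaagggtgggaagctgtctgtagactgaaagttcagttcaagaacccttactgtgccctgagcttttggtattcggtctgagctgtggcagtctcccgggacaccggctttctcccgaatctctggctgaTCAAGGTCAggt
Hrh2: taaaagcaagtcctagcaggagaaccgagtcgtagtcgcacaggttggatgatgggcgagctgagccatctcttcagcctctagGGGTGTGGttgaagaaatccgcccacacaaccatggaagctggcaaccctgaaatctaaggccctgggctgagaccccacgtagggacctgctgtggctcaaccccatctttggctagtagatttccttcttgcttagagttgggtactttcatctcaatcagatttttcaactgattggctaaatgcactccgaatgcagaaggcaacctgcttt
Mest: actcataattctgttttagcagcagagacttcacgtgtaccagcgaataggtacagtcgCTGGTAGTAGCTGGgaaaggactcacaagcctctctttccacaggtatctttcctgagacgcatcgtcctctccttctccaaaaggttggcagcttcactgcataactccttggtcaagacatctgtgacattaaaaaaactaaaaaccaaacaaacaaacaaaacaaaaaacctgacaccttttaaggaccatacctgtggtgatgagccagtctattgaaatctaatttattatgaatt

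The gained regions were short and weakly enriched. Their width ran from 1000 to 24000 bp with a median of 3400 bp (quartiles 2400 and 5000 bp), against medians of 3200 bp for lost regions, 5000 bp for all merged regions and 7000 bp for regions called in all 6 libraries. The ratio of ChIP reads to input reads, which is not scaled for depth, had medians of 1.75, 1.77 and 1.74 in KO libraries 1, 2 and 3. The lowest ratios were 1.22, 1.20 and 1.18, and the highest 4.47, 4.94 and 4.81. All calls of the same libraries had median ratios of 2.18 to 2.21. After scaling to library totals by epic2, the median log2 enrichment of the gained regions was 0.66, 0.71 and 0.72, against 1.00, 1.02 and 1.04 for all calls. The difference lay in the ChIP reads, with medians of 50.4, 50.0 and 50.0 per kb at the gained regions and 64.1, 63.7 and 63.1 per kb over all calls. Input reads were at 28.9, 28.8 and 28.9 per kb against 29.4 per kb in each library. A gained region rested on a median of 128, 124 and 116 ChIP reads and 74, 70 and 66 input reads, and 757, 764 and 763 of the 798 passed a false discovery rate (FDR) of 0.01 in the 3 libraries.

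The values just outside the rule were near those inside it. The 1212 regions called in 2 KO and 0 WT libraries had a median width of 2600 bp and a median KO ratio of 1.76, and the 993 called in 3 KO and 1 WT libraries were at 3600 bp and 1.82, while the gained regions had a ratio of 1.76 over all their KO calls. Most gained regions also lay close to a WT call of H3K4me1. The nearest was at a median of 3400 bp (quartiles 1600 and 8750 bp), 125 gained regions had one within 1 kb and 492 (61.7%) within 5 kb. For lost regions the nearest KO call was at a median of 9200 bp.

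Among the gained regions, width and enrichment went in opposite directions. Each region had to pass the caller's FDR in all 3 KO lists, and a short region with few reads needs a higher ratio for that. Whether the trend goes beyond this was not tested. Regions called in all 6 libraries were wider (median 7000 bp) and had a higher median KO ratio (2.27). The 101 gained regions under 2000 bp had a median ratio of 2.16 and 63.6 ChIP reads per kb, and 30.7% of their midpoints lay in introns. The 487 of 2000 to under 5000 bp had a ratio of 1.83, the 180 of 5000 to under 10000 bp had 44.2 reads per kb with 78.9% in introns, and the 30 of at least 10000 bp had a ratio of 1.36, of which 93.3% had their midpoint in an intron.

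**Figure D1:**
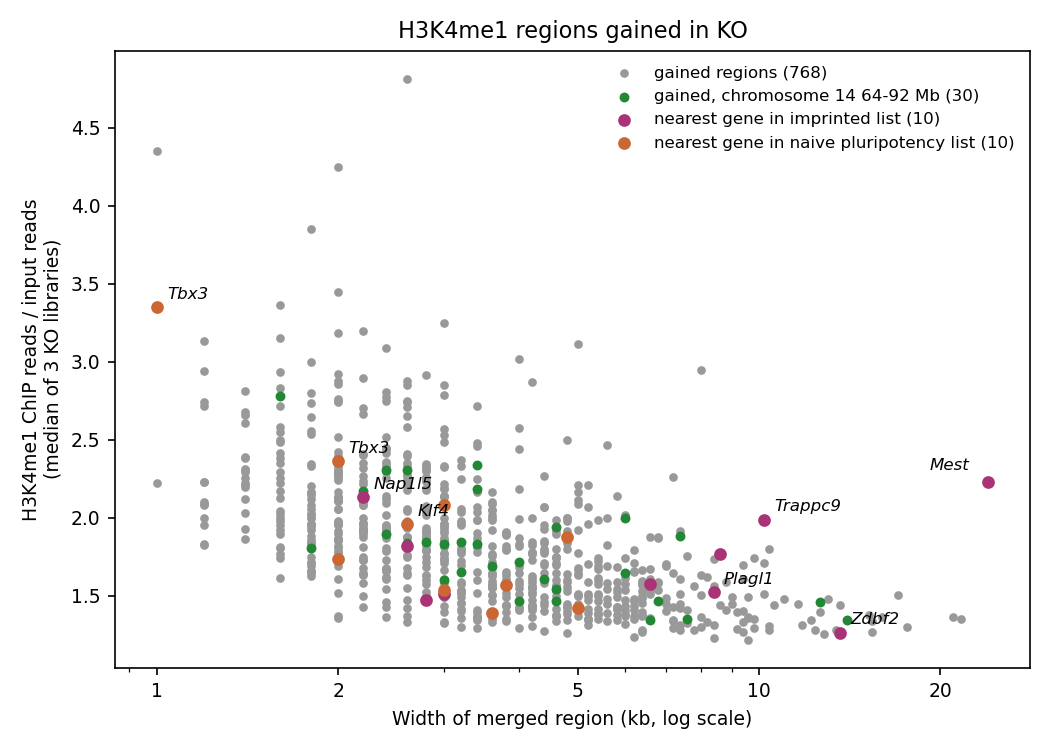
Width of each of the 798 gained regions (kb, log scale) against the median of its 3 KO ratios of H3K4me1 ChIP reads to input reads (not scaled for depth). Colours mark regions nearest to imprinted genes, to naive pluripotency genes and in the part of chromosome 14 with raised KO input, and Mest stands apart, at 24 kb with ratios of 2.18 to 2.23.

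The 10 gained regions with the highest enrichment in their weakest KO library were all between 1000 and 8000 bp wide. The first lay 66027 bp upstream of Kif5b, which encodes a kinesin motor (chromosome 18, 6308201 to 6309200), with ratios of 4.47, 4.35 and 3.80 in KO libraries 1, 2 and 3. A region 388269 bp upstream of Tbx3 (chromosome 5, 119281401 to 119282400) followed with 3.57, 3.35 and 2.87, and a region 5329 bp upstream of Hrh2, the histamine H2 receptor gene (chromosome 13, 54185201 to 54186800), with 3.36, 3.41 and 2.90. The counts behind these ratios are small, 82, 77 and 66 ChIP reads against 23 input reads in each library at Tbx3 and 84, 75 and 58 against 25, 22 and 20 at Hrh2. The others were nearest to Plxna2, a semaphorin receptor gene, Ajap1, Cldn23, a claudin gene, Mdfi, Dad1, Cdadc1 and Rnaseh2b. Those at Dad1 and Cdadc1 lay on chromosome 14 between 46 and 62 Mb, where input was low in both genotypes, at 17.0 to 17.1 reads per kb in the WT and 16.2 in the KO. That at Rnaseh2b lay just beyond 62 Mb, outside the sequence used for these input values.

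The 10 widest gained regions were weakly enriched, with the exception of Mest. They lay nearest to Mest (24000 bp), Fip1l1 (21600 bp), Kif28 (21000 bp), Trps1 (17600 bp), Mpp5 (17000 bp), Rbm33 (16000 bp), Slc30a10 and Kmt2c (15400 bp each), Nup205 (15200 bp) and Mtx2 (14000 bp). Kmt2c encodes one of the H3K4me1 methyltransferases. The region there (chromosome 5, 25413601 to 25429000, in an intron) had ratios of 1.34, 1.32 and 1.40, and all 9 regions other than Mest stayed between 1.21 and 1.54 in every KO library. At Mest the ratios were 2.23, 2.23 and 2.18.

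Gained regions were mostly intronic or intergenic and far from start sites. Of the 798, 455 (57.0%) had their midpoint in an intron and 289 (36.2%) between genes, while 23 lay in a promoter (from 5000 bp before a gene's annotated start to 100 bp after it), 19 in a coding exon and 12 in untranslated exon sequence. Introns held 46.6% of all merged regions and 39.0% of the lost ones, and intergenic sequence 40.8% and 55.9%. The median distance to the nearest start site of a protein-coding gene was 41649 bp, against 30029 bp for all merged regions and 70263 bp for the lost ones. Within 5 kb of a start site lay 49 gained regions (6.14%), compared with 24.3% of all regions and 6.10% of the lost regions.

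**Figure D2:**
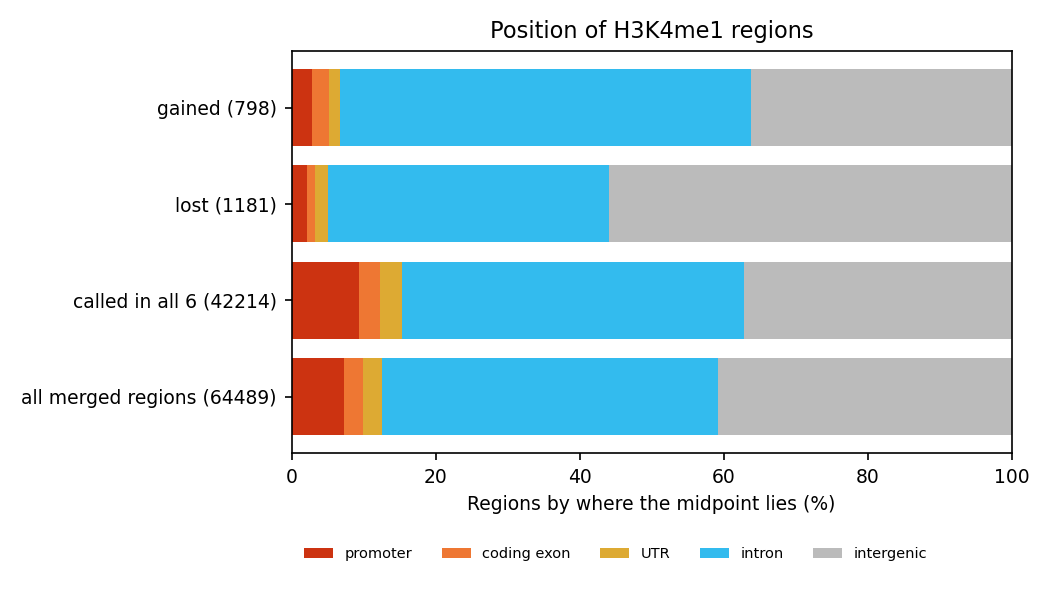
Share of regions (%) with their midpoint in a promoter, coding exon, UTR, intron or intergenic sequence, for gained, lost, called-in-all-6 and all merged H3K4me1 regions. Introns hold 57.0% of the gained regions and 39.0% of the lost ones.

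Few gained regions touched a promoter. There were 35 of them (4.39%, against 20.4% of all merged regions), and the 10 most enriched lay at Slc40a1, the iron exporter gene, Kdsr, Ptprc, Dad1, Rnaseh2b, Zfp622, Mdfi, Dynlrb1, Vwa5b1 and Nap1l5. The region at Mdfi, an inhibitor of myogenic factors (chromosome 17, 47837601 to 47839600, 2910 bp upstream), had H3K4me1 ratios of 2.92, 3.28 and 2.81. H3K27me3 calls covered 1000, 1600 and 1000 bp of it in WT and 0, 800 and 1200 bp in KO. H3K27ac covered 2000 bp in KO library 1, 1800 bp in KO library 3 and nothing elsewhere. At Vwa5b1 (chromosome 4, 138634401 to 138637800) H3K27ac covered 3400 bp in each KO library and 0 bp in each WT library, and H3K27me3 covered all or nearly all of the region in all 6.

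The gained regions were spread over the genome. Of the 798, 688 had no other gained region within 50 kb, and 110 (13.8%) did, a share that was 12.4% among lost regions. There were 42 pairs and 8 groups of 3 or 4. The largest groups by number were 4 regions at Dapk1 and BC051665 (chromosome 13, 60664001 to 60726800) and 4 upstream of Tbx3 (chromosome 5, 119233601 to 119297000). Groups of 3 lay at Tfcp2l1 (chromosome 1, 118708201 to 118749200), at Mcub and Sec24b (chromosome 3, 130002601 to 130043200) and in an intron of Ppfibp1 (chromosome 6, 146925201 to 146948600). The gained regions had 700 different nearest genes, of which 75 were nearest to at least 2 regions and 17 to at least 3. Ajap1, the gene of an adherens junction protein, had the most with 6, followed by Tbx3 with 5 and Kcnma1, a potassium channel gene, with 4.

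By chromosome, the share of merged regions that were gained was highest on chromosome 14, with 58 of 2631, and lowest on chromosome 8, with 6 of 964. Chromosome 14 holds a stretch from 64 to 92 Mb in which the KO input per kb exceeded that of the WT by a mean log2 of 0.15, and 30 of its 699 merged regions (4.29%) were gained. This stretch was not among those left out by the rule, and 768 gained regions remained without it. Of the gained regions named here, only that near Enox1 lies in it.

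Regions near naive pluripotency genes and imprinted genes made up a larger part of the gained regions than of all merged regions, as counts without a test. Of 25 naive pluripotency genes, 4 were nearest to 10 gained regions (1.25%, against 0.343% of all regions and 0.169% of the lost ones): Tbx3 with 5, Tfcp2l1 with 3, and Klf4 and Klf5 with 1 each. Of 65 imprinted genes and transcripts, 55 were annotated as genes here, and 10 were nearest to 10 gained regions (1.25%, against 0.357% of all regions and 0.677% of the lost ones). Members of 1 group lie near each other, so the 10 regions at naive genes stand for 4 loci.

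The other lists held few gained regions. The core pluripotency list had 2 (0.251%, against 0.112% of all regions), both near Sox2. Like those at Smad4 and Spred1, they were named after their values were seen. The formative and primed epiblast list had 3 (0.376%, against 0.206% of all regions), all near Sfrp2, a Wnt inhibitor. Pax3 was the only ectoderm and neural gene, with 1 region (0.125%, against 0.237% of all regions). Spred1 was the only gene of FGF and ERK signalling, with 1 (0.125%, against 0.281%). Signalling by TGF-beta, BMP and Wnt had 5 (0.627%, against 0.645% of all regions), near Smad4, Tcf7l2, Wnt5a and Tgfbr2, the latter with 2. No gained region was nearest to a gene of the mesendoderm, primitive endoderm, trophectoderm, NF-kB, DNA methylation or Polycomb lists, which were nearest to 0.203%, 0.149%, 0.105%, 0.0915%, 0.0853% and 0.132% of all merged regions.

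The 5 regions nearest to Tbx3, a T-box factor of the naive network, lay 200069 to 433269 bp upstream of its start site, between genes. Besides the 1000 bp region whose sequence is shown above, their KO ratios of H3K4me1 were 1.79, 1.53 and 1.57 (chromosome 5, 119233601 to 119237400), 1.87, 1.74 and 1.49 (119292201 to 119294200), 2.36, 3.29 and 2.07 (119295001 to 119297000) and 1.65, 2.08 and 2.11 (119467601 to 119470600). No WT library had a call of H3K27ac at any of the 5. Ratios given for other modifications, here and below, are of whole overlapping calls, which can reach beyond the gained region. H3K27ac was called in KO libraries 2 and 3 at the regions that start at 119292201 and 119295001, with ratios of 1.495 and 1.42 in the call that spans both, and in KO libraries 1 and 2 at the one nearest the gene, with ratios of 1.38 and 1.35. H3K9me3 calls touched the same 2 regions in all 3 WT libraries and in KO libraries 1 and 3.

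The 3 regions downstream of Tfcp2l1, which encodes a factor of naive pluripotency under leukaemia inhibitory factor, lay 80256, 112456 and 116256 bp from its start site. H3K4me1 ratios were 1.80, 1.88 and 1.99 at the first (chromosome 1, 118708201 to 118713000) and 1.54, 1.48 and 1.71 at the second (118740401 to 118743400). At the third (118744201 to 118749200), which holds the printed ESRRB motif, they were 1.91, 1.36 and 1.42. H3K27ac covered 2400, 2400 and 3600 bp of the third region in the KO libraries and none of it in the WT libraries, with ratios of 1.48, 1.43 and 1.40. In KO library 3 this was the same call as at the second region. The second region had H3K27ac in all 6 libraries, with 1200, 1800 and 1200 bp in the WT and 2200, 2400 and 3000 bp in the KO, and the first in WT libraries 2 and 3 and all 3 KO libraries.

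Klf4, the gene of a reprogramming factor, had 1 gained region 84935 bp upstream (chromosome 4, 55617401 to 55620000). Its ratios were 1.94, 2.10 and 1.96, and no call of the other 4 modifications touched it in any library. The region nearest to Klf5 (chromosome 14, 99440001 to 99443600), outside the naming rule and named after its values were seen, had H3K4me1 ratios of 1.33, 1.43 and 1.39. H3K27me3 covered 2000, 2800 and 2800 bp of it in the WT and 0 bp in each KO library. In all, H3K27ac was called in at least 2 of 3 libraries at 2 of the 10 regions of naive genes in the WT and at 7 in the KO, H3K27me3 at 5 and 3, H3K9me3 at 4 and 2, and H3K4me3 at none. Over all 798 gained regions, H3K27ac calls overlapped a mean of 19.7% per WT library and 36.2% per KO library. These means were 16.2 and 16.04% for H3K27me3 and 14.04 and 13.3% for H3K9me3. The 10 regions stand for 4 loci, and 2 at Tbx3 share their H3K27ac calls.

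**Figure D3:**
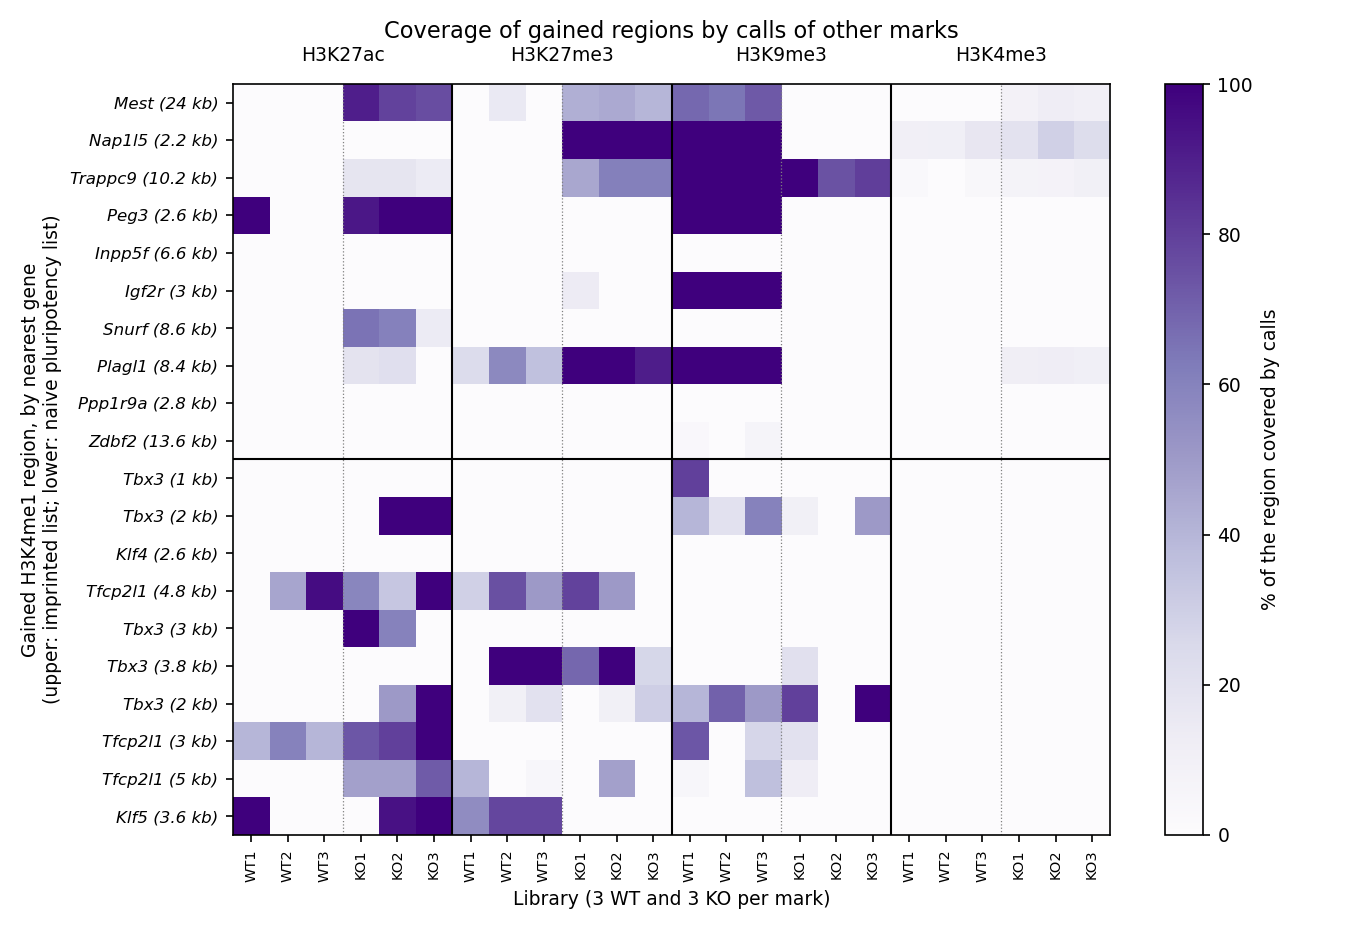
Share of each gained region (%) covered by calls of H3K27ac, H3K27me3, H3K9me3 and H3K4me3 in each of the 3 WT and 3 KO libraries, for the 10 regions nearest to imprinted genes (upper) and the 10 nearest to naive pluripotency genes (lower). H3K9me3 covers 7 imprinted regions in at least 2 WT libraries and 1 in the KO, and H3K27ac covers 0 in the WT and 5 in the KO. Over all 798 gained regions the mean share per library (WT and KO) was 14.04 and 13.3% for H3K9me3 and 19.7 and 36.2% for H3K27ac.

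Imprinted genes are expressed from 1 parental allele. H3K9me3 was called in at least 2 of 3 WT libraries at 7 of the 10 gained regions nearest to them and in at least 2 of 3 KO libraries at 1, while the counts were 0 and 5 for H3K27ac, 1 and 4 for H3K27me3 and 2 and 4 for H3K4me3. Over all 798 gained regions, H3K9me3 calls overlapped a mean of 14.04% per WT library and 13.3% per KO library. These means were 19.7 and 36.2% for H3K27ac, 16.2 and 16.04% for H3K27me3, and 1.17 and 2.01% for H3K4me3. The widest gained region lies in Mest (ENSMUSG00000051855), a paternally expressed gene, and starts 4654 bp downstream of its annotated 5′ end (chromosome 6, 30728201 to 30752200, midpoint in an intron). Its KO libraries held 1519 to 1734 H3K4me1 reads against 698 to 779 input reads. In WT, H3K9me3 calls covered 16400, 15400 and 17400 bp of it with ratios of 4.34, 4.37 and 3.72, and no KO library had one. No WT library had an H3K27ac call there, and the KO calls covered 21600, 19000 and 18200 bp at ratios of 2.30, 2.42 and 2.14. H3K4me3 peaks were likewise absent from the WT lists and covered 2056, 2976 and 2523 bp in KO, with a highest fold enrichment of 11.2 (KO library 1), 15.95 (KO library 2) and 15.98 (KO library 3). H3K27me3 covered 3600 bp in WT library 2 alone among the WT, but 10200, 10600 and 9600 bp in KO.

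A second such region lies in Plagl1, a zinc finger gene (chromosome 10, 13087401 to 13095800, intronic), named after its values were seen. Its H3K4me1 ratios were 1.38, 2.06 and 1.52. H3K9me3 covered all 8400 bp in each WT library, with ratios of 6.47, 5.20 and 4.10, and none of it in the KO libraries. H3K4me3 was called in the KO libraries alone, over 925, 1019 and 905 bp with fold enrichments of 6.17, 7.14 and 5.86, and H3K27me3 covered 2000, 4800 and 3000 bp in the WT and 8400, 8400 and 7600 bp in the KO.

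Smaller regions at 3 more imprinted genes were fully covered by H3K9me3 in every WT library and by no H3K9me3 call in the KO. In Igf2r, the receptor for insulin-like growth factor 2 (chromosome 17, 12734401 to 12737400, intronic), the WT ratios of H3K9me3 were 3.32, 2.82 and 2.75, and the KO ratios of H3K4me1 were 1.57, 1.51 and 1.43. In Peg3 (chromosome 7, 6721401 to 6724000, intronic) they were 3.18, 2.92 and 2.90, with H3K4me1 at 1.82, 1.69 and 2.39, and H3K27ac was called in WT library 1 and all 3 KO libraries. At Nap1l5 (chromosome 6, 58905801 to 58908000, over its 5′ end, within Herc3) they were 3.93, 3.24 and 3.62, with H3K4me1 at 2.13, 1.95 and 2.17. Here H3K27me3 covered 0 bp in each WT library and all 2200 bp in each KO library, and the H3K4me3 peaks present in all 6 libraries had fold enrichments of 4.57, 4.21 and 4.21 in the WT and 6.96, 7.80 and 9.74 in the KO.

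The region in an intron of Trappc9 (chromosome 15, 72804801 to 72815000), a locus that also holds the imprinted transcript Peg13, had H3K9me3 in all 6 libraries. The ratios of the H3K9me3 calls were 4.91, 4.64 and 4.24 in the WT and 2.26, 2.05 and 2.08 in the KO, so that the groups did not overlap. H3K4me1 was at 2.03, 1.87 and 1.99 in the KO, and H3K27ac covered 0 bp in each WT library and 1800, 1800 and 1400 bp in the KO libraries. Near Snurf (chromosome 7, 59974001 to 59982600) H3K27ac covered 5600, 5200 and 1200 bp in the KO and 0 bp in the WT, with no H3K9me3 in any library. The regions near Zdbf2, Inpp5f and Ppp1r9a had, in that order, H3K9me3 in WT libraries 1 and 3 only, and no call of the 4 modifications at the latter pair. Zdbf2 and Ppp1r9a were named after their values were seen.

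Over all 798 gained regions, H3K27ac was the modification whose presence differed most between the genotypes. H3K27ac calls overlapped 19.9, 19.9 and 19.2% of the gained regions in WT libraries 1, 2 and 3 and 36.1, 36.6 and 35.8% in the KO libraries. The means were 19.7 ± 0.434% and 36.2 ± 0.383% (SD over 3 libraries), a difference of 16.5 percentage points, and the groups did not overlap (two-sided exact permutation p = 0.1, Benjamini-Hochberg adjusted over the 4 modifications 0.2). A comparison of 3 libraries with 3 cannot give a p below 0.1, so no share compared here could pass 0.05. Over all merged H3K4me1 regions the shares were 55.4 ± 0.661% for WT and 52.98 ± 1.01% for KO (mean ± SD, n = 3), and over the lost regions they went from 29.0 ± 0.992% to 10.2 ± 1.08% (SD, n = 3 each). The share of gained minus that of all regions was −35.7 points in the WT and −16.8 points in the KO, a difference of 18.9 points (exact permutation p = 0.1). In the regions called in 2 KO and 0 WT libraries the share was 15.5 ± 1.14% for WT libraries and 24.6 ± 0.524% for KO libraries (mean ± SD, n = 3).

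H3K4me1 and H3K27ac were called against the same input in each genotype, and the sample labels give 1 antibody for both, where the methods section lists a different one for H3K27ac. The part of either in the shared gain was not tested. At 508 of the 798 gained regions no base had an H3K27ac call in at least 2 libraries of the same genotype. Where H3K27ac calls in all 6 libraries allowed a comparison, the input per kb of those calls differed by a log2 of −0.06 between KO and WT at 68 gained regions and by −0.07 over all 25972 such regions. Gained regions without an H3K27ac call in every library have no such comparison.

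The WT and KO shares of the other 3 modifications lay closer together. H3K27me3 overlapped 15.0, 16.8 and 16.8% of the gained regions in the WT and 16.04, 17.4 and 14.7% in the KO (means 16.2 ± 1.01% and 16.04 ± 1.38%, SD, n = 3 each, exact permutation p = 0.9), and the groups overlapped. Over all merged regions it was at 35.2 and 35.3%. H3K9me3 overlapped 116, 104 and 116 regions in the WT and 113, 94 and 112 in the KO (means 14.04 ± 0.868% and 13.3 ± 1.34%, SD, n = 3 each, exact permutation p = 0.5). H3K4me3 overlapped 10, 7 and 11 gained regions in the WT and 18, 15 and 15 in the KO (means 1.17 ± 0.261% and 2.01 ± 0.217%, SD, n = 3 each, exact permutation p = 0.1, adjusted 0.2), against 20.2 and 20.8% of all merged regions.

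**Figure D4:**
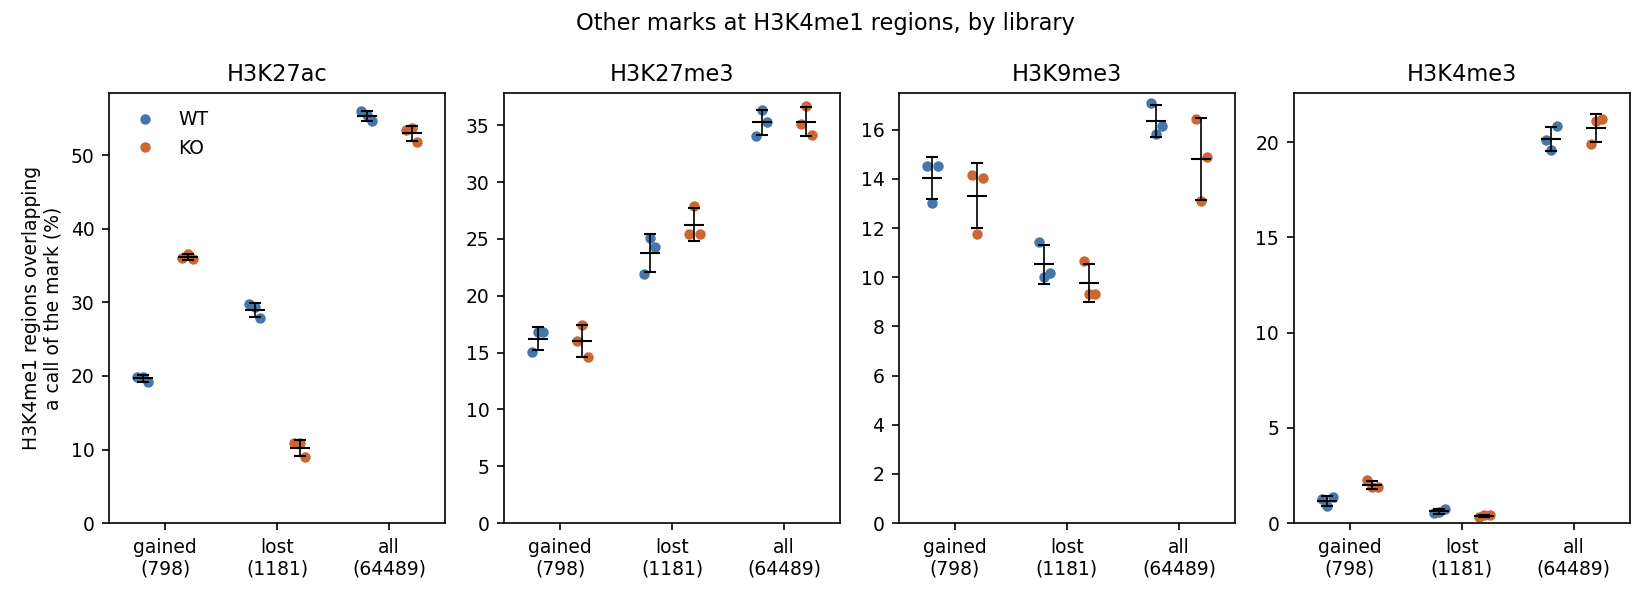
Share of gained, lost and all merged H3K4me1 regions (%) that overlap a call of H3K27ac, H3K27me3, H3K9me3 or H3K4me3. Points are libraries, horizontal bars group means and error bars the SD of 3 libraries, and the H3K27ac share of gained regions lies between 19.2 and 19.9% in the WT and between 35.8 and 36.6% in the KO.

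In the WT most gained regions carried none of these 4 modifications. Presence was taken as a base of the region called in at least 2 of 3 libraries of a genotype. The counts given above for naive and imprinted genes did not need the libraries to share a base. By this definition 490 (61.4%) had none in the WT, 97 (12.2%) had H3K27me3 alone and 91 (11.4%) H3K27ac alone. Another 60 (7.52%) had H3K9me3 alone and 29 H3K27ac with H3K9me3. In the KO, 395 (49.5%) had none and 186 (23.3%) H3K27ac alone. H3K27ac was present in the KO and not in the WT at 156 gained regions (19.5%, against 5.34% of all merged regions), in the WT and not in the KO at 17 (2.13%, against 7.37%), and in both at 117. H3K27me3 was present in the KO alone at 28 (3.51%, against 4.16%) and in the WT alone at 26 (3.26%, against 3.94%), H3K9me3 at 25 (3.13%, against 1.86%) and 34 (4.26%, against 3.52%), and H3K4me3 at 7 (0.877%, against 1.39%) and 0 (against 0.938%).

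The 156 regions with H3K27ac in the KO alone had H3K4me1 values near those of the rest. Their median width was 3600 bp and their median KO ratio of H3K4me1 1.80, against 3000 bp and 1.80 at the 508 regions without H3K27ac and 4400 bp and 1.61 at the 117 with H3K27ac in both genotypes. With presence defined as above, the share with H3K27ac in the KO grew with width. It was 20.8% of the regions under 2000 bp and 53.3% of those of at least 10000 bp. In the WT the share went from 9.90 to 33.3%.

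Under the stricter rule of 3 of 3 libraries of one genotype and 0 of 3 of the other, 27 gained regions (3.38%, against 0.924% of all merged regions) overlapped an H3K27ac region restricted to the KO, and 1, in Zdhhc3, overlapped one restricted to the WT (0.125%, against 2.01%). The 10 most enriched in H3K4me1 of these 27 lay at Cep170, Btbd11, Igfbp3, Syk, Nek10, Kcnma1, Trappc9, Cryaa, Vwa5b1 and Mest. At Cep170 (chromosome 1, 176633601 to 176635600) H3K27ac covered all 2000 bp in each KO library, with ratios of 1.43, 1.44 and 1.43. At Kcnma1 (chromosome 14, 23940201 to 23943000, intronic) it covered 2000, 2800 and 2800 bp with ratios of 1.44, 1.42 and 1.17. No WT library had a call there.

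H3K9me3 regions restricted to the WT were overlapped by 11 gained regions (1.38%, against 0.707% of all merged regions), and those restricted to the KO by 1, near Pitrm1 (0.125%, against 0.209%). Of the 11, 5 were the imprinted regions in Mest, Plagl1, Igf2r, Peg3 and Nap1l5. The others lay near Dnpep, Dcdc2c, Sox2, Actrt2, Zfp787 and Inpp5a, of which the one downstream of Sox2 (chromosome 3, 34893401 to 34899800) had 3600, 4800 and 3600 bp of H3K9me3 in the WT and H3K27ac in all 6 libraries. H3K4me3 regions restricted to the KO were overlapped by 3 gained regions (0.376%, against 1.07%), in Mest, in Plagl1 and 194521 bp upstream of Sfrp2 (chromosome 3, 83570001 to 83571800), where the peaks had fold enrichments of 7.29, 3.39 and 5.35, and those restricted to the WT by 0 (against 0.316%). H3K27me3 regions restricted to the KO were overlapped by 6 (0.752%, against 0.495%), among them Trappc9 and Nap1l5, and those restricted to the WT by 4 (0.501%, against 0.744%), near Creb1, Enox1, Klf5 and Far1. The genes in this paragraph other than Mest, Igf2r, Peg3, Nap1l5, Trappc9 and Sfrp2 were named after their values were seen.

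Read density was compared where H3K27ac was called in both genotypes. Reads and lengths were those of the whole overlapping H3K27ac calls, which can reach beyond the gained region. All 6 libraries had such a call at 68 gained regions. There the median log2 of H3K27ac reads per kb was 5.65 ± 0.06 for WT and 5.55 ± 0.03 for KO (mean ± SD, n = 3). The difference of −0.09 did not separate the genotypes (exact permutation p = 0.2). Scaled by reads in all called regions it was −0.15, and without the chromosome 14 stretch −0.09 (exact permutation p = 0.1 for each). It stayed negative under all 10 alternatives. Among these, a least width of 1000 bp and the replicate block could only return the main value. With the main scaling the difference was −0.13 over all 25972 such regions and −0.38 at 67 lost regions.

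Reads of whole regions of the other modifications were compared with the quasi-likelihood test of edgeR, at a threshold of 0.05 on p-values adjusted over all tested regions by Benjamini and Hochberg, limited to regions called in all 6 libraries over similar lengths. Of 21 H3K27ac regions that gained regions overlap, 9 were higher and 4 lower in the KO, where 26.4% of the 4054 tested H3K27ac regions were higher and 26.5% lower. Without TMM scaling 4 of the same 21 were higher and 5 lower (18.4 and 36.5% of all tested), with the median log2 of all tested regions at −0.05, so the balance of directions depended on the scaling. The most changed lies 54546 bp upstream of Tbc1d21 (chromosome 9, 58424001 to 58461200), with 231, 234 and 226 CPM in the WT libraries and 310, 307 and 294 in the KO libraries. All KO values lie above all WT values, and the log2 fold change was 0.40 ± 0.03 (SE) at an adjusted p of 2.99e-09 (edgeR). The region over Itga6, a laminin receptor subunit, had a log2 fold change of 0.16, and that over Polr2b, an RNA polymerase II subunit, −0.23. With an offset for the length of each call, over all regions called in 6 libraries, these values were 0.06 at Itga6, where the call was lost (edgeR adjusted p = 0.0872), −0.14 at Polr2b (0.0481) and 0.29 at Tbc1d21 (0.00169). These H3K27ac regions are much wider than the gained regions in them, 37200 against 5600 bp at Tbc1d21, so the values do not describe the gained regions alone.

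With the same edgeR test, 13 H3K27me3 regions at gained regions held 2 that were higher in the KO (Unc5a and Prdm11) and 1 that was lower, beside 15.8% higher and 19.3% lower among all 2025 tested. The 14 H3K9me3 regions held 2 that were higher (Gpr151 and Hs2st1) and 1 that was lower (Arl6ip6), beside 6.91% and 7.38% of all 3156 tested. The call at Arl6ip6 was lost with the replicate block, with DESeq2, without TMM scaling, without any 1 of the WT replicates and without KO replicate 3. With the length offset the calls at Unc5a, Prdm11, Gpr151 and Arl6ip6 were lost (edgeR adjusted p of 0.968, 0.986, 0.182 and 0.980), and that at Hs2st1 held with a log2 fold change of 0.34 in place of 0.18. The H3K9me3 region at Hs2st1 is 38400 bp wide against 2600 bp of the gained region, and it also overlaps a lost H3K4me1 region. Dropping the limit on length brought more regions into the edgeR test. Of 168 H3K27ac regions at gained regions 48 were then higher and 5 lower (13 and 11.5% of all tested), of 120 H3K27me3 regions 9 and 11 (4.75 and 5.44%), and of 87 H3K9me3 regions 8 and 5 (3.91 and 3.5%). With an offset for the length of each call the same regions gave 3 higher and 27 lower for H3K27ac (3 and 18.5% of all tested), 3 and 3 for H3K27me3 (0.681 and 2.56%) and 1 and 2 for H3K9me3 (0.322 and 0.11%), so the direction of the H3K27ac calls turned with the treatment of length as well. None of the regions described above at imprinted or naive genes passed the limit on length. With the offset, the H3K27me3 region at Plagl1 (chromosome 10, 13082401 to 13096600) was higher in the KO by a log2 of 0.90 ± 0.15 (SE, edgeR adjusted p = 4e-07), and the H3K9me3 region at Trappc9 (chromosome 15, 72800801 to 72817000) was at −0.69 ± 0.09 (adjusted p = 0.00312). Regions of other modifications at Zdbf2, Igf2r, Peg3, Snurf, Tbx3 and Tfcp2l1 were tested with the offset and did not pass. The H3K27ac region at Tfcp2l1 (chromosome 1, 118738601 to 118747800) was at −0.34 (edgeR adjusted p = 0.0543). Those at Snurf and Peg3 were at −0.09 (edgeR adjusted p = 0.158) and 0.28 (0.0527). The genes named for these tests were chosen after their values were seen.

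The central 1000 bp of the gained regions had a median GC content of 44.2% and 9 CpG sites, close to the lost regions (43.6% and 9) and below all merged regions (45.4% and 11). At least 30 CpG sites were held by 8 gained regions (1.00%), against 0.931% of the lost and 4.66% of all regions. Repeats masked in the reference took up a median of 18.8, 18.2 and 18.3%.

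Motifs were searched as exact matches on both strands of these 1000 bp windows, as a description of letters and not of binding. The motif of ESRRB, an orphan nuclear receptor of the naive network, TCAAGGTCA, was present in 62 gained regions (7.77%), in 1.61% of the lost regions and in 3.53% of all merged regions. Beyond 5 kb from a start site the shares were 7.48, 1.62 and 3.56%. Among regions called in 0 WT libraries the share was 5.01% with 1 KO library, 4.87% with 2 and 7.77% with 3, and among regions called in all 3 WT libraries it was 1.61, 2.71, 2.73 and 3.41% with 0, 1, 2 and 3 KO libraries. Regions with the motif included those at Hrh2, Mdfi, Dad1, Dynlrb1 and Tgfbr2, while the match printed for Tfcp2l1 lies outside the central window of that region. The share was 8.33% of the 156 gained regions with H3K27ac in the KO alone and 7.87% of the 508 without H3K27ac, and it was 7.84% of the 306 gained regions more than 5 kb from any WT call of H3K4me1.

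**Figure D5:**
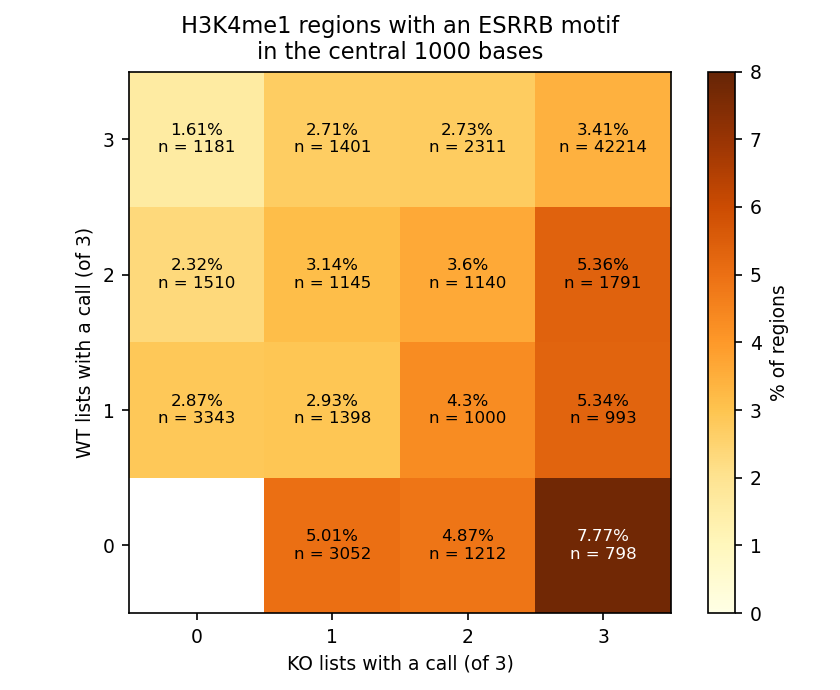
Share of merged H3K4me1 regions (%) with an ESRRB motif in their central 1000 bp, by the number of KO libraries (horizontal) and WT libraries (vertical) that called the region, with the number of regions n. The gained regions, lower right, are at 7.77%, and the lost regions, upper left, at 1.61%.

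The other motifs were searched in the same windows. The octamer of OCT factors, ATTTGCAT, was in 7.02% of the gained, 9.06% of the lost and 7.02% of all regions, and the SOX motif CATTGTTA in 3.88, 5.67 and 3.60%. The KLF motif GGGTGTGG was in 9.52, 8.47 and 10.1%, the TFCP2L1 motif, CCAG repeated after 6 bases of any kind, in 7.89, 8.30 and 9.91%, the T-box motif AGGTGTGA in 5.14, 5.00 and 4.85% and the AP-1 motif TGAGTCA in 17.2, 17.3 and 17.4%. The ZFP57 motif TGCCGC, of the factor that maintains imprints, was in 7.77, 8.13 and 10.8%. For NF-κB and CTCF the motif is given by name only. A pair of NF-κB elements were in 2 and 3 gained regions, 0.251 and 0.376%, against 0.284 and 0.225% of all regions. The STAT3 motif TTCCCGGAA, the ETS motif ACCGGAAGT and the core CTCF motif were in 0.251, 0.627 and 0.125% of the gained regions and 0.338, 0.341 and 0.101% of all regions.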

How the data were processed

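ChIP-seq libraries of H3K4me1, H3K27ac, H3K27me3, H3K9me3 and H3K4me3 (3 WT and 3 KO each) were used as the lists of called regions that the authors deposited per library on GRCm38. The submitters' processing notes name Trim Galore 0.6.6, Bowtie2 2.4.4, SAMtools 1.15, MACS2 2.2.7.1, deepTools 3.5.1 and SICER 0.0.52. The aligner of H3K27ac and the steps for H3K9me3 are not given in the sources used here. For all modifications but H3K4me3 the deposited epic2 lists give read counts of ChIP and input in each region, a p-value and FDR, a score and a log2 fold of ChIP over input scaled to library totals. For H3K4me3 the deposited MACS2 peaks give a fold enrichment ratio over input, a score and −log10 p- and q-values. The epic2 lists hold only regions that passed an FDR of 0.05, so an absent call is not a level of 0. One input per genotype served all 3 replicates, and the same pair of inputs served H3K4me1 and H3K27ac. The total reads of a library are not in the lists, and the reads in calls stand in for depth. Counts carry counting error that is not shown with the ratios.

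Calls were merged with an overlap of 1 bp, and a region is named by the nearest protein-coding 5′ end. A region overlapped a modification where any base was shared. Ratios and fold enrichments of the other modifications are those of the whole overlapping calls, while covered bases are those inside the region. Shares were compared over libraries by two-sided exact permutation tests. Reads in regions called in all 6 libraries whose shortest call was at least 0.8 of the longest were tested with the edgeR 4.0.16 quasi-likelihood test in R 4.3.3 with TMM scaling, tested on simulated data beforehand. Regions on the sex chromosomes and in the 3 segments of differing input were not removed before these tests. DESeq2 1.42.0 was an alternative. Python 3.11.15, pandas 2.3.3, numpy 2.4.6 and pysam 0.24.0 were used. Sequences came from GRCm38.p6.

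Named regions are the 10 with the highest enrichment in their weakest KO library, the 10 widest, up to 10 over promoters, up to 25 nearest to or overlapping genes of the lists, up to 10 with H3K27ac restricted to the KO and up to 5 with H3K27ac restricted to the WT, and the 5 groups with most members within 50000 bp. Others are said to have been named after their values were seen. The gained regions, the gene lists and the motifs were chosen with earlier results of these data known. Of the 35 gained regions at list genes, the rule took 25. No columns of per-sample values were left unused. The values of 1 region called by edgeR are not reported here.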

Additional observations from a re-analysis of the deposited data

How the results depend on the processing

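The number of gained regions depended on how calls were joined. Of the 798 regions, 306 lay more than 5000 bp from any WT call and 768 outside the chromosome 14 stretch of raised KO input (both chosen after seeing the data). With calls within 1000 bp merged the number was 578, at an FDR of 0.01 it was 807 and with equal numbers of top-ranked calls 711. Without merging, 6110 runs of at least 200 bases were covered in 3 of 3 KO and 0 of 3 WT lists (11051 in the other direction), a different unit from merged regions. With 1 library left out the number ran from 1134 to 1415, at 1415 without KO replicate 1 and 1288 without KO replicate 2. Fewer lists then have to meet the rule, so these counts are not like for like with 798. The part of the looser rule in the higher counts was not tested. The H3K27ac share kept its direction and groups that did not overlap under all 14 alternatives (16.2 to 16.7 points with 1 library left out). Among these, a least width of 1000 bp and the replicate block could only return the main value. The small H3K27me3 difference of −0.167 points changed sign when at least 0.5 of a region had to be covered (0.125), with calls within 1000 bp (0.251), at an FDR of 0.01 (0.372), without the chromosome 14 stretch (0.0434) and beyond 5000 bp from a WT call (1.63). It ran from −0.856 to 0.522 with 1 library left out, positive without WT replicate 2, WT replicate 3 or KO replicate 3. The H3K9me3 difference of −0.710 points was 0.877 with equal numbers of top-ranked calls, −1.46 when at least 0.5 of a region had to be covered (exact permutation p = 0.1, groups not overlapping), −1.80 with calls within 1000 bp and −1.31 beyond 5000 bp from a WT call, and ran from −1.21 to 0.0627 with 1 library left out, positive without KO replicate 2. The H3K4me3 difference was 0 when at least 0.5 of a region had to be covered, 0.545 beyond 5000 bp from a WT call, and 0.689 to 0.940 with 1 library left out. The edgeR calls at gained regions (13 for H3K27ac, 3 for H3K27me3, 3 for H3K9me3) were 30 and 6 for H3K27ac and H3K27me3 with an offset for call length over all regions called in 6 libraries, 53, 20 and 13 without the length limit, and 1 for H3K9me3 with DESeq2. They were 11 to 13, 2 to 3 and 2 to 4 with 1 library left out. With the length offset, 3 H3K27ac regions at gained regions were higher and 27 lower, against 9 and 4 in the report, where the offset moved the median of all regions to −0.13, and without TMM scaling 4 were higher and 5 lower. The causes were not tested.

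Libraries of the same replicate number correlated by −0.08 to 0.03 for H3K27ac, 0.04 to 0.11 for H3K27me3 and 0.0044 to 0.02 for H3K9me3. For 1, 3 and 2 of the 3 WT libraries, in that order, the best match was the KO library of the same number. Whether replicate numbers pair the samples was not tested. With the replicate number as a block, the share differences were 16.5, −0.167, −0.710 and 0.835 points (exact sign-flip p of 0.25, 1, 0.25 and 0.25, where 0.25 is the smallest possible), the H3K27ac density difference −0.09, and the edgeR calls 14, 3 and 2, with the lower H3K9me3 region lost.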
